A study of Mus musculus with 2 samples.

Results

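Of the 235 regions that the authors listed for anti-Smyd2 chromatin immunoprecipitation and sequencing (ChIP-seq) in Pkd1 null cells, 204 overlapped no region of the list made from Pkd1 wild-type cells by 1 bp or more. That is 86.8% of the null list, and 156 of the 187 wild-type regions, or 83.4%, likewise overlapped no null region. The 204 regions, called null-only here, were chosen by this overlap of listed coordinates, which rests on the reads that put a region in a list, so these shares are a description. Both libraries came from cultured renal epithelial (MEK) cells of embryonic kidney, on a C57BL/6 background. One carried the Pkd1 wild-type genotype and the other Pkd1null/null, and both cultures grew at 33 °C in 2% fetal bovine serum with interferon-gamma and were precipitated with the same antibody lot. The labels name no clone, passage, animal number or agent that differed between them. Each genotype had 1 library. Input DNA and control immunoprecipitations were not analysed here, so the reads below have no background value beside them. A region missing from the wild-type list is unlisted there, which is not a measured loss. Regions of DNA do not measure expression, so the labelled cell type was not checked against its markers.

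Smyd2 carries a SET domain, which transfers methyl groups to lysines, and a MYND zinc finger, through which it binds other proteins. Its known substrates include histone H3 and non-histone proteins, among them the retinoblastoma protein and STAT3. It is not known as a sequence-specific DNA-binding factor. Whether and how Smyd2 comes to the listed regions was not tested here. Pkd1 encodes polycystin-1, a membrane protein of the primary cilium, and its loss in tubule cells leads to kidney cysts.

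Null-only regions reached the start sites of a small set of genes. In all, 8 of the 199 null-only regions on chromosomes with start sites in the table (4.02%, Wilson 95% interval 2.05 to 7.73) overlapped a promoter window of the RefSeq table, which runs from 250 bases before to 50 bases after a start site. Among wild-type-only regions the count was 5 of 151 (3.31%, interval 1.42 to 7.52). Among the 31 null-list regions shared with wild type it was 0 (interval 0.0 to 11.0). The intervals cover counting error only and overlap one another. The 8 regions held 12 to 17 reads.

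The 8 regions reached 9 promoter windows. Shown are 7 of them, 1 for each protein-coding gene, so that the bases inside or beside each listed region can be read. The other Accs window and that of a lncRNA gene are not shown. Sequences are from RefSeq (GRCm38.p6), run 5′ to 3′ on the gene's strand, and have each CpG dinucleotide in capitals, since CpG content separates the main promoter classes of mammals.
Arhgdia, chr11:120581575-120581874, minus strand: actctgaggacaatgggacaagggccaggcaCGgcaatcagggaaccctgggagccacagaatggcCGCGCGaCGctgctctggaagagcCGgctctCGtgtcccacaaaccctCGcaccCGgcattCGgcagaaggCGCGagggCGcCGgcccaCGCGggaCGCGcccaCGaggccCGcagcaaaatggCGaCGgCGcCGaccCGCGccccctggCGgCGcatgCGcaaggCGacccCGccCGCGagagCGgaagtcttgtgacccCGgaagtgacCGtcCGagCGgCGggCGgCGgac
Sema4b, chr7:80186620-80186919, plus strand: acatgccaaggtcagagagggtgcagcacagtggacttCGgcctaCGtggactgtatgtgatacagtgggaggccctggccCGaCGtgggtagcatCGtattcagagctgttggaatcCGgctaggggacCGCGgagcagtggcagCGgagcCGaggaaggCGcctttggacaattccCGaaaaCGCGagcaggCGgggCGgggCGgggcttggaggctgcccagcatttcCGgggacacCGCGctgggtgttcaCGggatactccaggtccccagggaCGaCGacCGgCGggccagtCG
4921507P07Rik, chr6:50596541-50596840, minus strand: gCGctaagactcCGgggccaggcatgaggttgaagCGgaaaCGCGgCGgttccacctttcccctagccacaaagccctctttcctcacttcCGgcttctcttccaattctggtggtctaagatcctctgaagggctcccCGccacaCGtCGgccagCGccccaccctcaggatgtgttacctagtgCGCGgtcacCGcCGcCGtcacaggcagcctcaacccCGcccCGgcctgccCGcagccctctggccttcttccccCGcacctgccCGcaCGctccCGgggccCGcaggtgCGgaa
Robo2, chr16:75092721-75093020, minus strand: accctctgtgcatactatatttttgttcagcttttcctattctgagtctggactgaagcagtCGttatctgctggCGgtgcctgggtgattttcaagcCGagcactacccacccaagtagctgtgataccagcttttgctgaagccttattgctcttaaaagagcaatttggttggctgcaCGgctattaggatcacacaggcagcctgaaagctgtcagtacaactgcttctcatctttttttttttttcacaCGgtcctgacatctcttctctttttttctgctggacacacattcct
Accs, chr2:93849750-93850049, minus strand: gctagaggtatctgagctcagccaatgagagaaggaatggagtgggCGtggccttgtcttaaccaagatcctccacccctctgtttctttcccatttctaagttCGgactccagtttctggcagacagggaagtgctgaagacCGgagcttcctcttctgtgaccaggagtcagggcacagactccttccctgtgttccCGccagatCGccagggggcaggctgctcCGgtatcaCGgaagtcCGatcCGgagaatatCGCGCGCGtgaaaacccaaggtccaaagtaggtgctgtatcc
Cyp2j9, chr4:96591436-96591735, minus strand: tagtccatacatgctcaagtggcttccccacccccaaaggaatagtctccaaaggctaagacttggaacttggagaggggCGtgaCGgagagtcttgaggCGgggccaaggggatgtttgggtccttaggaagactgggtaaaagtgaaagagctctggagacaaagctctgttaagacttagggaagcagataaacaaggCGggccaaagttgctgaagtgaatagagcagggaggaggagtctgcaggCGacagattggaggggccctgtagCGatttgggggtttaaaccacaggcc
Slc22a19, chr19:7711261-7711560, minus strand: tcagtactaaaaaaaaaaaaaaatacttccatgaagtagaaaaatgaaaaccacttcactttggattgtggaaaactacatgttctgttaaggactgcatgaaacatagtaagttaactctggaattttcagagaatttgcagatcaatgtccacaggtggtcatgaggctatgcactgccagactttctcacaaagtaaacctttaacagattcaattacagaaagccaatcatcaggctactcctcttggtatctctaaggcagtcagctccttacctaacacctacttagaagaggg

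Arhgdia encodes a GDP-dissociation inhibitor that keeps small GTPases inactive in the cytosol and is needed in kidney podocytes. Its region at chromosome 11, 120581551 to 120582450, held 16 reads, and its midpoint lay 376 bp upstream of the start site. All 300 bases of the printed window fell inside the region, with 41 CpG and a GC content of 72.0%. This was the most CpG-rich of the 9 windows that null-only regions overlapped, against a median of 7 CpG over the 32851 windows of the table.

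Sema4b, a transmembrane semaphorin gene, had 15 reads in a region centred 95 bp upstream of its start site (chromosome 7, 80186401 to 80187150). Its window lay wholly inside the region and held 26 CpG. The window of 4921507P07Rik, a protein-coding gene without a name of its own, was covered in full by a region of 13 reads centred 15 bp past the start site, and it held 25 CpG. These 3 windows with 25 or more CpG were also the 3 of the 9 that contained the GC box letters GGGCGG on either strand. Over all windows of the table, 35.7% contained them.

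Robo2 encodes a Slit receptor that guides axons and, in the embryonic kidney, limits where the ureteric bud grows out. Its null-only region, at chromosome 16, 75092401 to 75093150, held 17 reads, the most of the 8, and its midpoint lay 5 bp upstream of a Robo2 start site. That start site is inside the gene, 22.8% of the way along its span of 73891976 to 75447443 on the minus strand, so it is not the outermost start. The authors' list gives no gene for this region. The window held 5 CpG and a GC content of 45.0%, below the table median of 52.7%.

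Accs, which encodes a homologue of a plant ethylene-synthesis enzyme, has a pair of listed start sites, and the region of 13 reads at chromosome 2, 93849301 to 93850050, reached both windows. The printed window held 13 CpG. Cyp2j9, a cytochrome P450 epoxygenase family gene, had 16 reads in a region centred 260 bp past a start site, with 165 of the 300 window bases inside it and 6 CpG. Slc22a19, an organic anion transporter gene of the kidney, had 12 reads in a region centred 335 bp past its start site. Only 90 bases of its window lay inside, and the window held 0 CpG. The remaining window belonged to Gm39870, a predicted long non-coding RNA (lncRNA) gene on chromosome 2, where the region held 13 reads.

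The windows shared no searched motif. Letters were searched on both strands over the 9 windows and over all 32851, and a match is only a match of letters. CCAAT was in 5 of the 9 (55.6%, against 37.4% of all), belonging to Cyp2j9, 4921507P07Rik, Slc22a19 and both Accs windows, which overlap each other. The STAT-type palindrome TTCNNNGAA was in 1 (11.1%, against 8.30%), at Slc22a19. TATAAA, in 13.6% of all windows, and CACGTG, in 7.15%, were in 0.

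**Figure D1:**
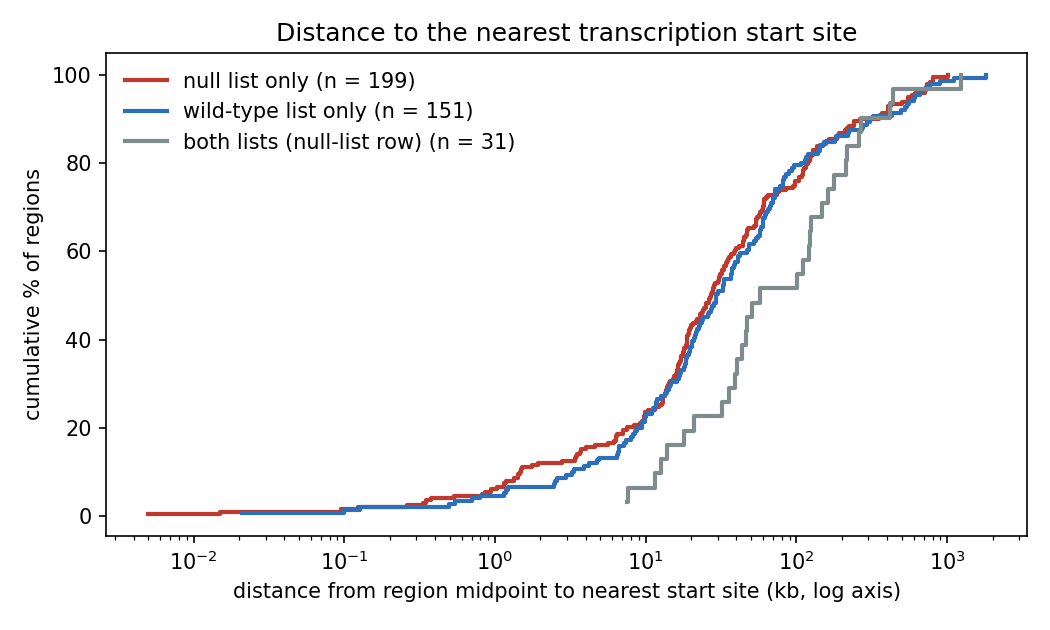
Cumulative percentage of regions (vertical axis) against the distance from region midpoint to the nearest RefSeq start site in kb (horizontal log axis), for null-only regions (n = 199), wild-type-only regions (n = 151) and null-list regions shared with wild type (n = 31), without chromosome 18. The curves of the single-list regions run close together, with medians of 27.2 kb and 29.4 kb, and the shared regions lie to their right, with a median of 57.6 kb.

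A wider window of 1 kb around start sites held 12 null-only midpoints (6.03% of 199, interval 3.48 to 10.2), 10 of them at protein-coding genes, against 7 of 151 wild-type-only (4.64%, interval 2.26 to 9.26) and 0 of 31 shared. Besides the 8 above, these were Rnd3, Rtf1, Col7a1 and the lncRNA gene Gm41257, whose regions all lay past the start site. Rnd3 encodes an atypical small GTPase that loosens actin stress fibres, and its region of 13 reads (chromosome 2, 51148201 to 51148950) was centred 536 bp into the gene. Rtf1 encodes a subunit of the Paf1 transcription elongation complex, and its region of 13 reads (chromosome 2, 119675551 to 119676300) was centred 857 bp into it. The region of Col7a1, the gene of anchoring-fibril collagen, also held 13 reads, 939 bp into the gene.

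Just outside that window, regions lay upstream of Bcdin3d (1145 bp, 12 reads), which encodes an RNA methyltransferase, and of Mxi1 (1181 bp, 18 reads), which encodes a MAX-binding repressor of Myc targets. Smim34 had a region 1154 bp upstream with 15 reads. Past the start lay regions in Pip5k1c, a phosphatidylinositol phosphate kinase gene (1337 bp, 11 reads), the lncRNA gene Tug1 (1414 bp, 15 reads) and Cenpb, the gene of a centromere-binding protein (1467 bp, 11 reads). The authors' list assigns the last region to Spef1, a sperm flagellar gene. Most null-only regions were far from any start site, with 52.3% at 10 to 100 kb (104 regions) and 24.1% farther than 100 kb (48 regions). Start sites on chromosome 18, where the other 5 null-only regions lie, were not used here.

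The Orientation column of the list was compared with gene strand. Of the 7 null-only regions listed as upstream or downstream of a gene, 5 had a gene whose strand the promoter table gives. With the label downstream, the regions of Mxi1, Bcdin3d and 4930579D09Rik lay before the gene. The Olfr365 region, with the same label, lay before the start site in the promoter table but inside the longer span that the gene table gives Olfr365. The 1 with the label upstream (1700061I17Rik) lay past its gene. The strand of Ly6a and Xkr5 was not used here.

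Ends of genes of any class lay within 1 kb of 24 null-only midpoints (11.8% of 204, interval 8.04 to 16.9), against 14 of 156 wild-type-only (8.97%, interval 5.42 to 14.5). Ends of protein-coding genes lay within 1 kb of 16 null-only midpoints (7.84%, interval 4.89 to 12.4), against 6 of 156 wild-type-only (3.85%, interval 1.77 to 8.14) and 0 of 31 shared. By strand, 10 of the 16 were at gene starts and 2 at gene finishes, and 4 had no strand. The starts were those of Mxi1, Evi5, Arhgdia, Sema4b, Rnd3, Accs, Rtf1, 4921507P07Rik, Col7a1 and Slc22a19. These are ends of gene spans, which can differ from the start sites of the promoter table. The Mxi1 and Evi5 midpoints lay 803 bp and 318 bp from the span end, but 1181 bp and 6377 bp from the nearest such start site. Evi5, which encodes a GTPase-activating protein of vesicle traffic and mitosis, had 17 reads (chromosome 5, 107875051 to 107875800). The finishes were those of Rbbp4, a histone chaperone gene with 13 reads, and Rmnd1, a mitochondrial translation gene with 12 reads. The Rbbp4 region also lay in Sync, a neighbouring gene of an intermediate filament protein, near that gene's finish, and the authors' list names Sync. The other 4 were Slc14a1, the gene of a urea transporter of the renal medulla, with 14 reads, Ly6a, an antigen gene of stem and immune cells, with 15, Lce1f, a cornified envelope gene, with 12, and Taar4, a trace amine receptor gene, with 11. In each class of position the intervals of null-only and wild-type-only regions overlapped, and with 1 library per genotype no difference was tested.

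**Figure D2:**
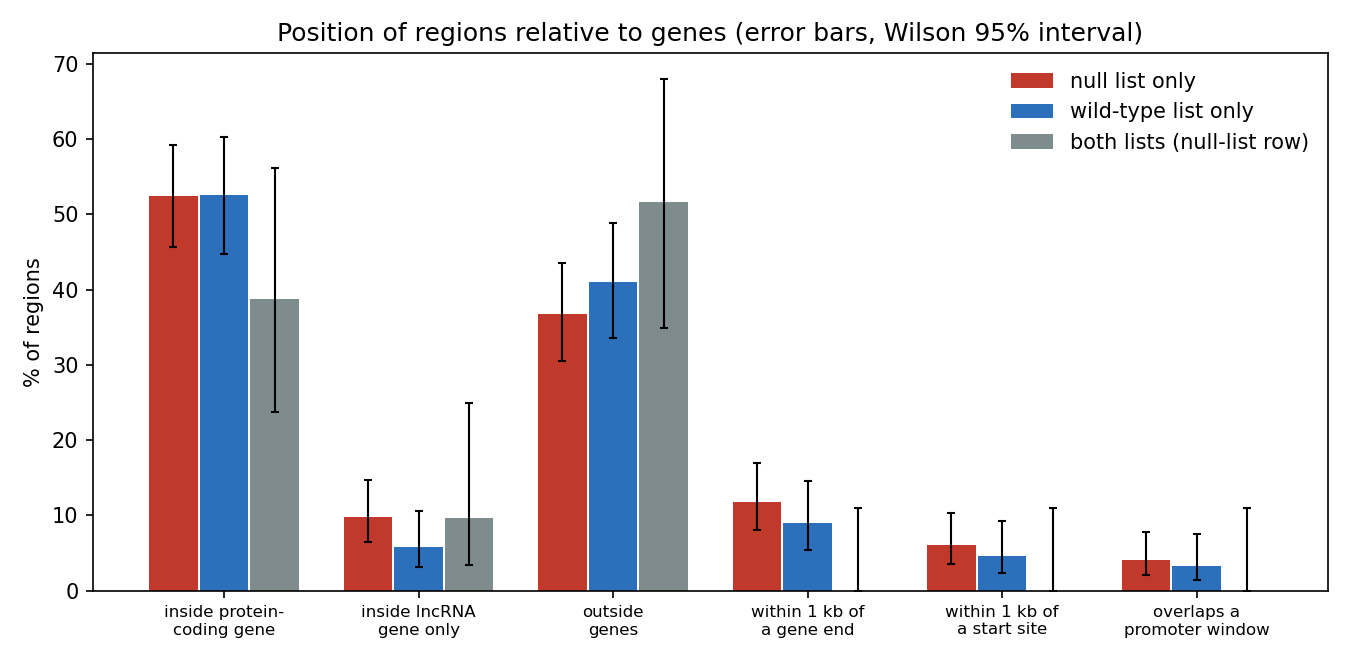
Percentage of regions (vertical axis) in each position class for null-only (n = 204, or 199 for the start-site classes), wild-type-only (n = 156, or 151) and shared regions of the null list (n = 31), with Wilson 95% intervals as error bars. In each class the intervals of null-only and wild-type-only regions overlap, and the shared regions have no bar in the 3 classes near gene ends and start sites.

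Read numbers of null-only regions were low and narrow. A region's reads are 2 raised to the deposited log2 value, unscaled to depth. The lowest was 11 reads, the median 13 (quartiles 12 and 15) and the highest 150, and 118 of 204 regions held 11 to 13 reads. Only 8 regions held 20 or more. Counting error alone spans 6.92 to 22.2 for 13 reads and 10.7 to 28.5 for 18 reads (exact Poisson 95% intervals), so the order of nearly all regions cannot be told from counting error. Reads followed width. The 50 regions of 600 bp held a median of 12.5 reads (lowest 11), the 143 of 750 bp a median of 13 (lowest 12) and the 10 of 900 bp a median of 15.5 (lowest 14), so the lowest listed number rose with width. The 31 shared regions held a median of 23 reads in the null list, and 13 of them held 30 or more, against 1 of the 204. Their counterparts in the wild-type list held a median of 45 reads, also unscaled to depth.

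**Figure D3:**
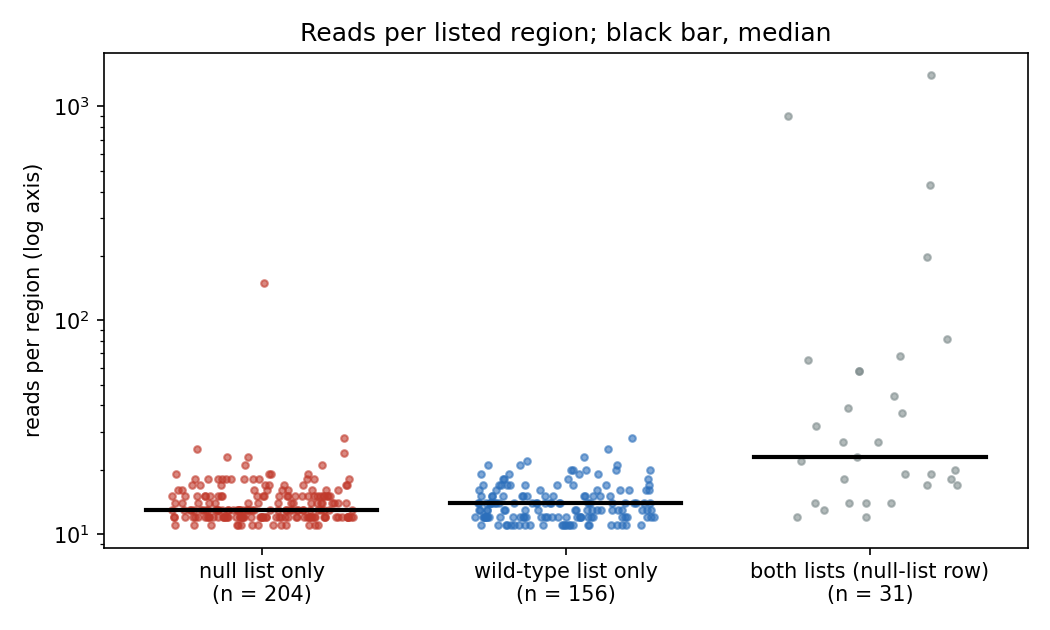
Reads per region on a log axis for null-only, wild-type-only and shared regions, 1 point per region, with the median as a black bar. Nearly all null-only regions sit between 11 and 28 reads, and 1 stands apart at 150. The wild-type-only regions span 11 to 28 reads of their own library, unscaled to depth.

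The region that stands apart lies at chromosome 9, 3034801 to 3036900. It held 150 reads (Poisson interval 127 to 176) over 2100 bp, or 71.4 reads per kb, against a median of 18.7 per kb over all null-only regions. The authors' list names Gm17535, a predicted gene, as overlapping, and in the gene table its midpoint lay 2819 bp outside the nearest gene, Mir101c, a microRNA gene. It was also the null-only region with the second-shortest way to a wild-type region, with 10800 bases between them. That neighbour, listed with Gm10718 and ending at 3024000, is in both lists, with 198 null reads and 267 wild-type reads. Repeated sequence was not analysed in any region. Whether repeats raised the reads here, or those of the shared regions, was not tested.

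The overlap rule left few borderline cases. The closest null-only region, inside Prpsap1, a gene of a phosphoribosylpyrophosphate synthetase-associated protein, was separated from a wild-type region by 1500 bases. After the chromosome 9 region came Cacng3, with 21300 bases between, and only 7 of the 204 were within 100 kb of a wild-type region, with a median distance of 5978 kb. On the inner side, the smallest overlap was 600 bp, for the regions in Lamc3 (12 null reads) and Litaf (14 null reads).

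**Figure D4:**
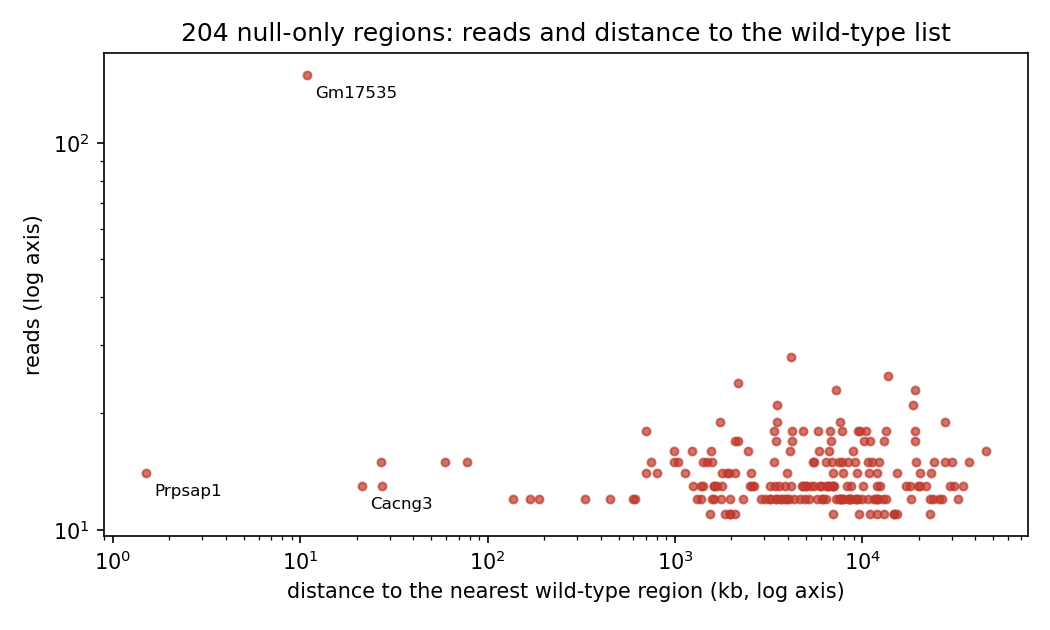
Reads (vertical log axis) of the 204 null-only regions against the distance to the nearest wild-type region in kb (horizontal log axis), 1 point per region. The regions in Prpsap1 and Cacng3 and the region listed with Gm17535 are among the 7 within 100 kb, and most of the rest lie beyond 1000 kb.

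Of the 138 genes that cover a null-only midpoint, 5 (3.62%) also covered the midpoint of a wild-type region elsewhere. Over all 49943 genes of the table, 111 covered a wild-type midpoint (0.222%), and the part of gene length in this was not tested. Prpsap1 held 14 null reads at chromosome 11, 116482951 to 116483700, and 16 wild-type reads in the wild-type region beside it. Cacng3, a gene of an auxiliary subunit of calcium channels and AMPA receptors, held 13 null reads and, in another region, 15 wild-type reads. Zbtb16, a zinc finger repressor gene, held 13 and 14, with 27.5 kb between its regions. Ndst4, a heparan sulfate sulfotransferase gene, held 12 null reads in a region 136 kb from a region that both libraries list (17 wild-type reads). The last was the lncRNA gene 2610027F03Rik, with 15 and 11. In these 5 genes of the gene table the null-only region and the wild-type region lie at different positions. In Ndst4 alone, the null list also has the wild-type position.

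Most null-only regions lay inside gene spans (129 of 204, 63.2%), as did most wild-type-only regions (92 of 156, 59.0%). The share of the genome that gene spans cover was not computed, so no preference for genes can be read from these shares. By midpoint, 107 of 204 (52.5%, interval 45.6 to 59.2) were inside a protein-coding gene, 20 only inside a lncRNA gene (9.80%, interval 6.44 to 14.7), 2 only in a gene of another class and 75 outside genes (36.8%, interval 30.5 to 43.6). Wild-type-only regions gave 82 of 156 inside protein-coding genes (52.6%, interval 44.8 to 60.2) and 64 outside genes (41.0%, interval 33.6 to 48.9). The protein-coding genes that held null-only regions had a median length of 114 kb, those with wild-type-only regions 86.9 kb and those with shared regions 208 kb, against 17.2 kb over all protein-coding genes of the table. A gene enters these groups by covering a midpoint, which favours long genes wherever regions lie, so nothing is concluded from these lengths. For the 81 regions whose gene had a known strand, midpoints lay at a median of 48.1% of the gene from its start. In steps of 20% of the gene from its start, 23, 14, 14, 15 and 15 midpoints were counted.

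The authors' list gives a gene for 117 null-only regions (57.4%, interval 50.5 to 63.9): 110 overlapping, 5 downstream and 2 upstream. It gives none for 87, although 21 of these had their midpoint inside a gene of the RefSeq table, 6 of them in protein-coding genes. Robo2 and Ksr2, a kinase scaffold gene of the Ras pathway (19 reads), were among these 6. Of the 104 overlapping genes whose symbol matched the table, 102 had a span that reached the region.

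Below the region of 150 reads came regions of 28 to 19 reads. For Xkr5, of the XK-related family of membrane proteins, the list gives 28 reads at chromosome 8, 18930751 to 18931650. The list labels this region upstream by 1079 bp. In the gene table its midpoint lay inside the Xkr5 span, 7048 bp from the nearest gene end. Rbfox3, a neuronal splicing factor gene, held 24 reads at 64.0% of its length (chromosome 11, 118641001 to 118641900), and Gnao1, the gene of the G protein alpha subunit o, held 23 reads at 74.6% (chromosome 8, 93928501 to 93929250). Wipf1, whose product binds WASP and promotes actin branching, held 21 reads 7.06 kb past its start site (chromosome 2, 73522051 to 73522800). Next came Lrch3, which encodes a leucine-rich repeat protein, and Ksr2 with 19 reads each, and a region of 19 reads outside genes at chromosome 8, 15492901 to 15493800, 37.1 kb from the predicted gene Gm46033. Of the regions in Rbfox3, Gnao1, Wipf1, Lrch3 and Ksr2, that in Wipf1 was the only one within 10 kb of a start site.

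Regions of 18 reads, of which there were 12, completed the top of the list, since ties ran past the 20 regions meant for full description. Grik3, a kainate receptor subunit gene, had its region 3.50 kb past the start site (chromosome 4, 125493901 to 125494500). Kcnab2 encodes a beta subunit of potassium channels, Dock2 a Rac activator of leukocytes, Ccdc6 a coiled-coil protein known from RET fusions, Virma a subunit of the RNA m6A methyltransferase complex, and Wwox an oxidoreductase within a common fragile site. Pkhd1, the fibrocystin gene, held its region (chromosome 1, 20571001 to 20571750) at 8.34% of a span of 560 kb. The other 18-read regions were at Mxi1, inside Gse1, and outside genes at chromosome 1, 24116251, chromosome 2, 47428201, and chromosome 10, 129065551. Gse1, which encodes a partner of histone deacetylase complexes, was the only gene with more than 1 null-only region. Its second held 17 reads, and 32.9 kb lay between them, the shortest distance between any pair of null-only regions. The authors' list gives both as Gm20388, a predicted gene.

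Of 306 genes listed as regulators of small GTPases and actin, 6 had a null-only region (1.96%), against 0.617% of all 21887 protein-coding genes. This list and those below were chosen with earlier results of these data known, so their shares are a description. Wild-type-only regions gave 3 of the 306 (0.980%), against 0.439% of all protein-coding genes. A gene counts here when it covers the midpoint or, if none does, is the nearest within 50 kb. They were Wipf1 (21 reads), Dock2 (18 reads), Wipf3 (14 reads), Wasf3 (14 reads, 5631 bp outside the gene), Rnd3 (13 reads) and Rasgef1a (12 reads). Wipf1 and Wipf3 encode partners of WASP, and Wasf3 encodes a member of the WASP family of actin nucleation promoters. Genes of this list had a median length of 42.2 kb, above the 17.2 kb of all protein-coding genes, and the part of length in the share was not tested. Outside the list, and picked after their values were seen, stood Arhgdia (16 reads), Mical2, an actin-oxidising enzyme gene (11 reads), Phactr3, an actin and phosphatase regulator gene (14 reads), Rap1gds1, an exchange-factor gene (13 reads), and Ralgps1, a Ral activator gene (13 reads).

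Adhesion and synapse genes were hit in 5 of 257 cases (1.95%): Grik3 (18 reads), Robo2 (17 reads), Sema4b (15 reads), Dlg2, a synaptic scaffold gene of 1973 kb (12 reads), and Pcdh11x, a protocadherin gene (11 reads). Their list had a median gene length of 123 kb. Ion channel genes were hit in 3 of 201 (1.49%), namely Kcnab2 (18 reads), Cacng3 (13 reads) and Kcnj6, an inward-rectifier potassium channel gene (12 reads). Solute carriers were hit in 3 of 389 (0.771%): Slc14a1 (14 reads), Slc22a19 (12 reads) and Slc25a13, the gene of the mitochondrial aspartate-glutamate carrier (12 reads). The solute carrier share was close to that of all protein-coding genes, and the channel and adhesion shares were above it, for lists of longer genes. Wild-type-only regions hit 4 of the 201 channel genes (1.99%), 3 of the 389 solute carriers (0.771%) and 2 of the 257 adhesion genes (0.778%). Their share over all protein-coding genes was 0.439%.

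**Figure D5:**
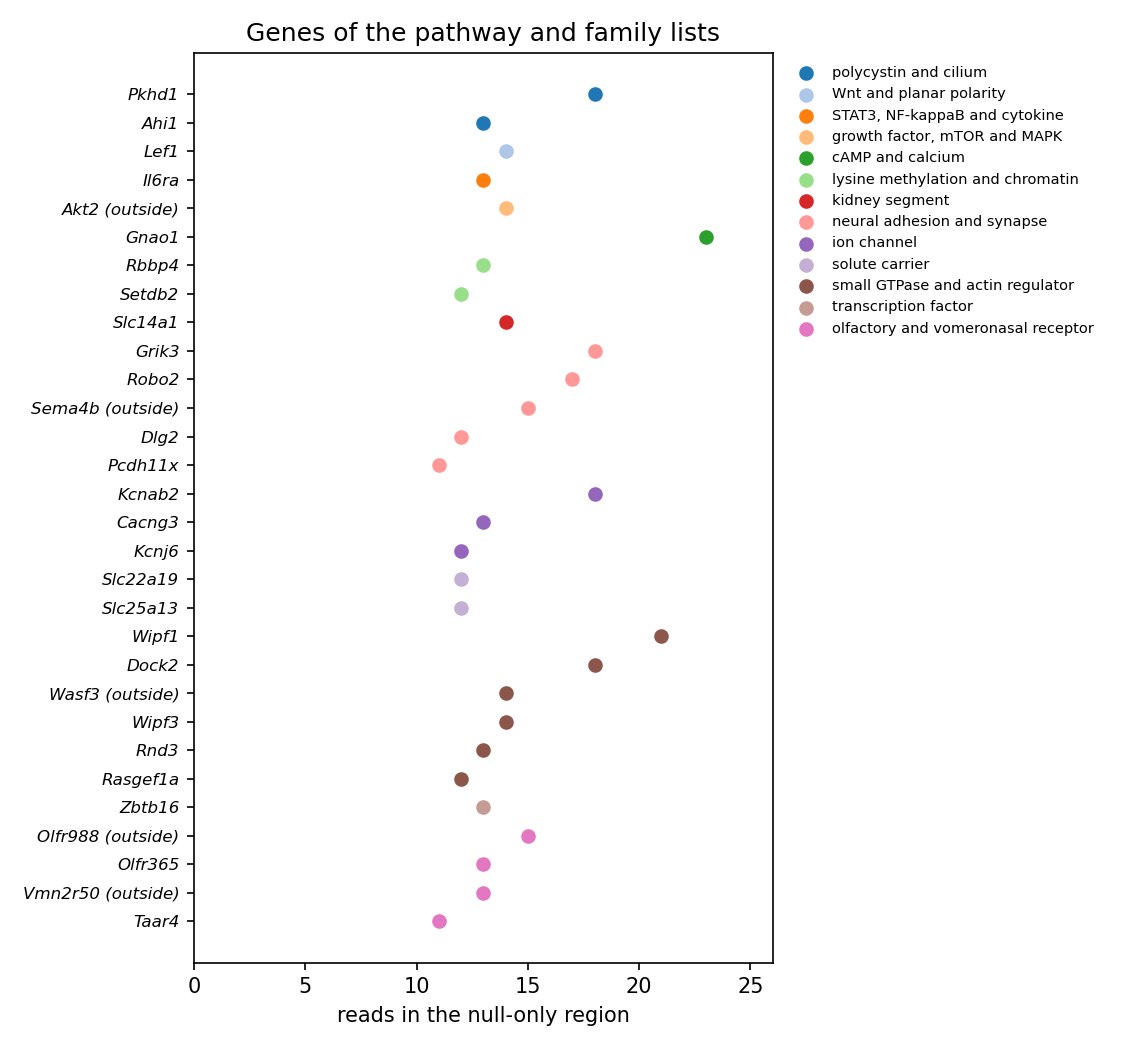
Reads (horizontal axis) in the null-only region of each of the 30 listed genes, coloured by list, with genes whose region lies outside the gene marked. Each gene is shown under its first list, so Lef1 and Slc14a1 appear once. Gnao1 (23 reads) and Wipf1 (21 reads) stand at the high end, and the other 28 genes lie between 11 and 18 reads.

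Lists of pathways of cystic disease and of Smyd2's substrates each had 1 or 2 genes with a null-only region. The list of 54 polycystin and cilium genes had 2 (3.70%), Pkhd1 (18 reads) and Ahi1, a ciliary transition zone gene (13 reads). The Wnt list of 38 genes had 1 (2.63%), Lef1 (14 reads, 11.4 kb upstream of the nearest Lef1 start site in the table although inside the gene span). The list of STAT3, NF-kappaB and cytokine genes had 1 of 28 (3.57%), Il6ra, which encodes the interleukin-6 receptor upstream of STAT3 (chromosome 3, 89894101 to 89894850, 13 reads). Growth factor, mTOR and MAPK genes had 1 of 33 (3.03%), Akt2, with 14 reads 2749 bp outside the gene. The cAMP and calcium list had 1 of 30 (3.33%), Gnao1. These shares are above the 0.617% of all protein-coding genes, each on 1 or 2 genes. Because the lists were chosen with earlier results of these data known, the shares are a description and carry no support. The median gene lengths of these 5 lists were 28.1 to 81.9 kb, above the 17.2 kb of all protein-coding genes, and the part of length was not tested. Wild-type-only regions hit 1 gene of the Wnt list, Ctnnb1, and 1 of the cAMP and calcium list, Pde4d, and 0 of the other 3 lists.

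Of 41 genes of lysine methylation and chromatin 2 were hit (4.88%, median gene length 43.1 kb), Rbbp4 (13 reads) and Setdb2, a SET-domain methyltransferase gene (chromosome 14, 59411101 to 59411700, 12 reads). Wild-type-only regions hit 0 of the 41. Of 709 transcription factor genes 2 were hit (0.282%), Lef1 and Zbtb16. The cell cycle and apoptosis list had 0 of 30, Mxi1 among them, because the midpoint of the Mxi1 region lay in the lncRNA gene Gm30541, while the authors' list assigns that region to Mxi1. Members outside the lists, picked after their values were seen, were Gtf2a1, a general transcription factor gene (15 reads), Cecr2, a bromodomain remodelling gene (16 reads), Cdk7, the kinase gene of the CDK-activating complex and TFIIH (12 reads), Camta1, a calmodulin-binding transcription activator gene (11 reads), and Morc3 (12 reads). The kidney segment list had 1 of 33 (3.03%), Slc14a1. Receptors of smell and pheromones had 4 of 1480 (0.270%), and wild-type-only regions hit 2 of them (0.135%). The regions at Olfr988 (15 reads) and Vmn2r50 (13 reads) lay 8170 bp and 11910 bp outside the gene. Those of Olfr365 (13 reads) and Taar4 (11 reads) lay inside. Together 30 of 3607 listed genes were hit (0.832%), near the 0.617% of all protein-coding genes. Wild-type-only regions hit 17 of the 3607 (0.471%), against 0.439% of all protein-coding genes.

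Further members, named after their values were seen, fell outside every list. In the motile cilium, Hydin, a gene of the central pair apparatus, held 15 reads. In membrane traffic, Exoc4, an exocyst subunit gene, held 16 reads, Kif16b, an endosomal kinesin gene, 12, and Tfg, a gene of endoplasmic reticulum exit sites, 12. In the matrix and its sugars, Cspg5 held 15 reads, Sparc 12, Arsb 12 and Galnt14 12. In metabolism, Aldh9a1 held 15 reads, Atp5c1, a subunit gene of ATP synthase, 13, Nox4, the NADPH oxidase gene most abundant in kidney, 13, Aadat 13, Gpd1l 13 and Mccc2 12. In kinase signalling, Mark2, a polarity kinase gene, and Rps6kc1 held 13 reads each, and Gab1, an adaptor gene of the Met receptor, held 12. In the membrane skeleton, Ank3 held 12 reads and Sptbn4 11. All of these lie in the range of 11 to 16 reads, where counting intervals overlap.

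Outside protein-coding genes, the highest lncRNA member was D130079A08Rik at chromosome 14, 104336551 to 104337450, with 25 reads, followed by Gm32130 at chromosome 16, 95780101, with 19 reads. Of the 75 regions outside genes, 33 were within 10 kb of a gene and 10 were over 100 kb from any, with a median of 15.7 kb. A region of 23 reads on chromosome X, 103636951 to 103637700, lay 5661 bp from Zcchc13 and 13.6 kb upstream of the start of Ftx, a lncRNA gene of the X-inactivation centre. The region at chromosome 16, 61636651 to 61637250, with 21 reads, was 175 kb from the nearest gene. Other intergenic members were near named genes, such as 3728 bp from Fzd9, a Wnt receptor gene (15 reads), and 6119 bp from Plscr1, a scramblase gene (14 reads).

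Null-only regions were spread over all autosomes and X, and none was on Y. Chromosome 16 had 13 (1.33 per 10 Mb of annotated span), chromosome 9 had 15 (1.24) and chromosome 8 had 15 (1.16), against 3 on chromosome 17 (0.317) and 7 on X (0.410). Wild-type-only regions numbered 5, 9, 4, 11 and 5 on chromosomes 16, 9, 8, 17 and X, and 1, of 11 reads, was on Y. Chromosome 17 carries Pkd1 at 24548689 to 24596514, and no null-only midpoint lay inside Pkd1. Smyd2 itself, at chromosome 1, 189880492 to 189922495, had its nearest null-only region 913 kb away, in Rps6kc1. With 1 library per genotype, these counts were not tested.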

How the data were processed

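Per the labels' protocols, DNA was recovered from sonicated nuclei with a Smyd2 antibody. The authors deposited 1 region list per genotype with 1 log2 value per region. Raised to the power of 2, it gave a whole number in every region (relative tolerance 0.001; 0 exceptions in both lists), read here as unscaled reads in the mapped file that the file headers name. Per the submitters' processing notes, coordinates are GRCm38. Which aligner, region caller, threshold or control was used is not given in the sources used here. Total depth is unknown, so null and wild-type reads, where printed side by side, are not on a common scale. The Distance column, per the file headers, is in bp.

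Regions overlapping by 1 bp were shared. Gene spans (49943 genes) and promoter windows (32851, of 27025 genes, chromosome 18 not used) were RefSeq GRCm38.p6. Midpoints decided membership of genes. Named were the 20 regions with most reads and ties, those within 1 kb of a protein-coding gene end and those of listed genes; further genes were named by role. Members and lists were chosen with earlier results of these data known. With 1 library per genotype no test was made; Wilson and Poisson 95% intervals cover counting error only. Alternatives changed overlap, read minimum, window, gene class and assignment. Tools were scipy 1.17.1, pandas 2.3.3, numpy 2.4.6 and matplotlib 3.10.9 under Python 3.11.15; distances and overlaps were checked on simulated regions (300 of 300 gaps recovered).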

Additional observations from a re-analysis of the deposited data

How the results depend on the processing

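No paired analysis was possible because the labels give 1 library for each genotype, so no library could be left out either. Of 22 values under other settings, 13 stayed close to those reported (counts within 1.5 times, shares within the interval given, a median if equal). The median per kb, which has another unit, was put among the 9 that moved without a comparison. The number of null-only regions stayed at 204 when regions under 1 kb apart or only overlaps of at least 50% of both regions counted as shared. It was 68 with a minimum of 15 reads in the null list and 69 with that minimum in both lists, since fewer regions enter. With 15 or more reads, 50% (34 of 68) had a gene from the authors and 52.9% lay inside a gene, against 63.2% of all 204, and the cause was not tested. Protein-coding genes alone gave 52.5% inside and 7.84% near an end, because fewer genes count. A 5 kb window gave 31.9% near a gene end, against 11.8% within 1 kb, and 16.1% near a start site, against 6.03%, the start-site settings being added after the data were seen. Per width, the median was 18.7 reads per kb. Low reads limit every region: 13 reads carry an interval of 6.92 to 22.2.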
